A study of Mus musculus with 9 samples.

Results

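A set of 10 genes that mark vascular endothelium was followed across the 9 arrays of laser-captured renal vesicles, the first epithelial bodies of the nephron, from Lim1 mutant and wild-type mouse kidneys. The 10 genes were Kdr, Flt1, Flt4, Cdh5, Tek, Emcn, Esam, Egfl7, Ramp2 and Erg, out of 18194 genes with a single symbol on the Affymetrix array. They were chosen by name, and a probe set was taken as theirs when its only symbol in the platform annotation was one of these names. That gave 19 probe sets, of which 15 passed a filter on dim probe sets. A further 2 probe sets list Ramp2 together with Vps25 and were not counted.

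The 2 groups were Lim1 mutant vesicles (4 arrays) and wild-type vesicles (5 arrays), both captured from E12.5 kidneys, with about 30 to 50 vesicles behind each array. The mutated gene, Lhx1 in current naming, codes for a homeodomain transcription factor needed in early nephrons. The labels call the 9 samples biologically independent but do not give the mutant allele, any Cre driver, the strain or the embryos behind an array, so p-values measure the spread between these samples. Signals are the deposited intensities on a linear scale, and differences are Lim1 mutant minus wild type in log2 units after quantile normalisation.

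Endothelial cells line blood and lymphatic vessels, which grow among the nephron precursors of the embryonic kidney but are not part of the vesicle epithelium. Their growth is driven by vascular endothelial growth factor (VEGF), a secreted ligand that nephron epithelium makes and that binds the receptor tyrosine kinases Kdr and Flt1, while the related ligand VEGF-C binds Flt4. Tek binds the angiopoietins. Cdh5 and Esam hold endothelial cells together, Emcn is a surface sialomucin, Egfl7 is a secreted protein, Ramp2 partners the receptor Calcrl to bind adrenomedullin, and Erg is an ETS-family transcription factor of endothelium. In captured tissue, fewer endothelial cells and less RNA per cell cannot be told apart.

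Promoter sequences are shown for Kdr and Emcn, whose signals moved together across arrays, for Egfl7, which followed the other genes most closely, and for Tek, which did not follow them. They come from RefSeq (GRCm38.p6), cover 250 bases before to 50 after a transcript start, and are written 5′ to 3′ on the gene's strand. Capitals mark the ETS-type motif GGAAG or, on the other strand, CTTCC. The windows are chr5:75978406-75978705 (minus strand) for Kdr, chr3:137340828-137341127 (plus strand) for Emcn, chr2:26583615-26583914 (plus strand, the middle of 3 listed starts) for Egfl7 and chr4:94739039-94739338 (plus strand) for Tek.
Kdr: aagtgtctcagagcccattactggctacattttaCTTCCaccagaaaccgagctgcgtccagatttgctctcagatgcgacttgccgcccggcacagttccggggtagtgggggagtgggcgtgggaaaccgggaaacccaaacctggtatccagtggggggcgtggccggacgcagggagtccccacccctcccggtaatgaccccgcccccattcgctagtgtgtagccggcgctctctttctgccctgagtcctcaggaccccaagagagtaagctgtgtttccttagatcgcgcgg
Emcn: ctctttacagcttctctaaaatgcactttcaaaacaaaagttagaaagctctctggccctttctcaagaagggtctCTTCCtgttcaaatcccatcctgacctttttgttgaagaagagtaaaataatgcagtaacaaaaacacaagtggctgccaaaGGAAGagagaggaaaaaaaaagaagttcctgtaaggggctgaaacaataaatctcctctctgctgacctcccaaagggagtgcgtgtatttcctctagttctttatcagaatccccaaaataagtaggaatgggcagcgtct
Egfl7: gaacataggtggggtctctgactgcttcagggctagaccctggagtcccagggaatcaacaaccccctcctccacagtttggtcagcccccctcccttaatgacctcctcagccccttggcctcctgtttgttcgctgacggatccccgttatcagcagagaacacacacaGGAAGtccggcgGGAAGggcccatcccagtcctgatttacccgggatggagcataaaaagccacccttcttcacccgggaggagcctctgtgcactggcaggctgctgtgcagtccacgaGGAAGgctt
Tek: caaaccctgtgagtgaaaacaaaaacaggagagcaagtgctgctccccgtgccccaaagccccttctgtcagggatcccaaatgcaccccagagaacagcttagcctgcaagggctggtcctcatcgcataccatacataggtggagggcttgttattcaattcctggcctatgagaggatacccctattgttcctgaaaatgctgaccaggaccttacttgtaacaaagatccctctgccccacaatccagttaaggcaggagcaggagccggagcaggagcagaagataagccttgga

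The table of promoters held 11 starts for 7 of the 10 genes. Cdh5, Esam and Ramp2 had no entry. GGAAG or CTTCC lay in 8 of these 11 windows, covering 6 of the 7 genes, and in 71.4% of all 32851 promoter windows. Of the windows shown, that of Kdr held 1 match, that of Emcn 2, that of Egfl7 3 and that of Tek 0. The other Egfl7 windows held 4 and 0 matches. The Erg windows held 1, 1 and 0, the Flt1 window 3 and the Flt4 window 1. Other forms of the ETS motif, such as GGAA followed by another base, were not counted, and they occur in the windows shown, that of Tek included. The GATA motif AGATAA, or TTATCT on the other strand, lay in 2 of the 11 windows, that of Tek and 1 of Erg, and in 11.2% of all windows. These are matches of letters in a short window and carry no measurement of binding.

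Before the results, 3 facts of the series bear on them. Array medians lay between 144 and 195. Wild-type array 3 correlated least with the other arrays (mean r = 0.783 across tested probe sets, against 0.802 to 0.864 for the other 8 arrays), and wild-type array 1 was next at 0.802. The Lhx1 signal at 1 probe set was 8.61 ± 1.99 in Lim1 mutants (SD, n = 4) and 6544 ± 6261 in wild type (SD, n = 5), while at the other it was 4499 ± 347 in Lim1 mutants and 10687 ± 6556 in wild type. The sources used here do not say which of them lies in the altered part of the gene, and only such a probe set checks the genotype.

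None of the 10 endothelial genes passed the test between Lim1 mutant and wild-type vesicles, although each had a lower mean log2 level in the mutants. Differences at the probe set representing each gene ran between -1.42 for Erg and -0.10 for Ramp2, with a median of -0.76, against a median of 0.07 over all 13226 genes tested. The wild-type arrays did not form a single level: arrays 3 and 4 were high for most of the genes, while array 5 was at or below the mutants for several. The mutant arrays lay within that wild-type spread for 7 of the 10 genes, against 35.0% of all tested genes and 50.0% of a wider endothelial list.

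**Figure D1:**
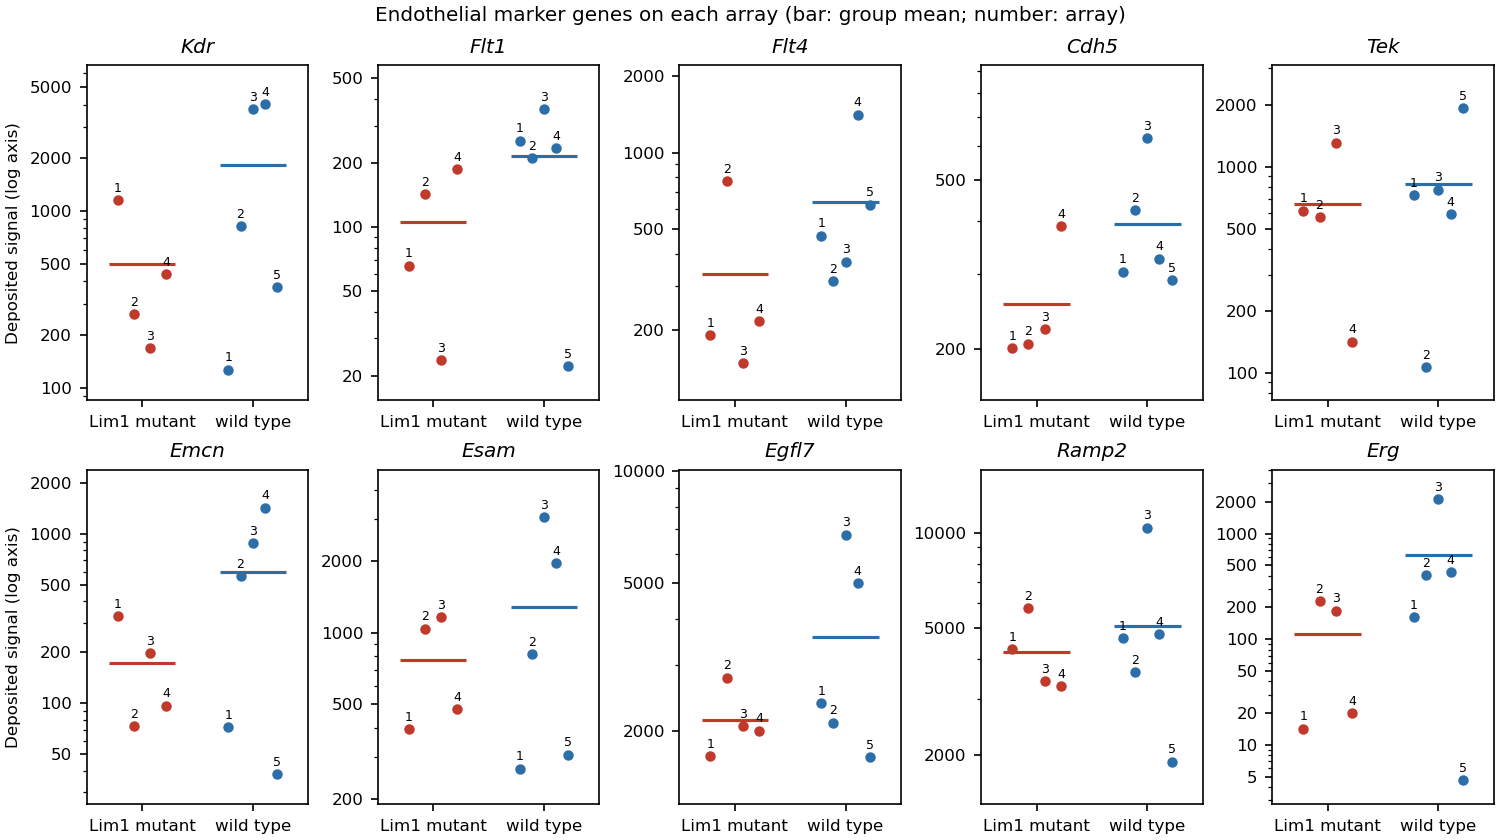
Deposited signal of the 10 endothelial genes on each array, on a log axis, at the probe set with the highest mean. Red points are the 4 Lim1 mutant arrays and blue points the 5 wild-type arrays, numbered by replicate, with a bar at each group mean. Wild-type arrays 3 and 4 lead for Kdr, Emcn, Esam and Egfl7, whereas wild-type array 5 leads for Tek.

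Kdr encodes the main signalling receptor for VEGF. Its signals were 1150, 260, 168 and 438 on Lim1 mutant arrays 1 to 4, against 127, 823, 3758, 4011 and 370 on wild-type arrays 1 to 5. The groups overlapped fully, because wild-type array 1 was below every mutant array while wild-type arrays 3 and 4 were more than 3-fold above the highest mutant. The log2 difference was -1.24 ± 0.93 (SE), with a 95% interval of -3.27 to 0.80 (limma adjusted p = 0.858), and it ran between -1.85 without wild-type array 1 and -0.74 without wild-type array 4.

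Flt1 encodes a VEGF receptor with high affinity and weak kinase activity, which limits the ligand available to Kdr. Its representing probe set read 65.9, 143, 23.6 and 187 in Lim1 mutants and 255, 211, 358, 234 and 22.1 in wild type. Wild-type arrays 1 to 4 were all above the highest mutant, and wild-type array 5 was below the lowest. The difference was -0.86 ± 0.59 (adjusted p = 0.837), and it ran between -1.31 without wild-type array 5 and -0.57 without mutant array 3. A second tested probe set of Flt1 had a difference of -0.97 ± 0.80 and followed the first only in part (r = 0.52 over the 9 arrays): it read 177 on mutant array 3, against 946 on array 3 and 417 on array 1 of the wild type, and 30.2 to 75.6 elsewhere. The other 2 Flt1 probe sets lay below the filter.

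Flt4, the receptor for VEGF-C, is spread over early vessels and later becomes typical of lymphatic ones. It read 192, 774, 149 and 217 in Lim1 mutants, against 472, 312, 373, 1412 and 625 in wild type. Mutant arrays 1, 3 and 4 were below every wild-type array, and mutant array 2 was above all but wild-type array 4. The difference was -1.02 ± 0.59 (adjusted p = 0.803), and -0.51 ± 0.49 (adjusted p = 0.890) at its other probe set, which tracked it with r = 0.69. The difference at this other probe set was -0.86 without mutant array 2 and -0.17 without mutant array 3.

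Tek, the angiopoietin receptor also called Tie2, had another order of arrays. Its signals were 614, 570, 1309 and 142 in Lim1 mutants and 731, 107, 774, 589 and 1923 in wild type. It was highest on wild-type array 5, where the deposited signals of Erg, Emcn, Flt1, Ramp2 and Egfl7 were at their lowest, and second on mutant array 3. The groups overlapped fully (difference -0.26 ± 0.79, adjusted p = 0.973), and the direction turned to 0.29 without mutant array 4 and to 0.15 without wild-type array 5.

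Among the junction and surface genes, Cdh5 came closest to a separation of the groups. Cdh5, the VE-cadherin of endothelial junctions, read 201, 206, 223 and 389 in Lim1 mutants, against 304, 424, 626, 326 and 290 in wild type. Mutant arrays 1 to 3 were below every wild-type array, and mutant array 4 stood within the wild-type range. The difference was -0.65 ± 0.42 with an interval of -1.57 to 0.27 (limma adjusted p = 0.826), and an exact permutation test (126 splits, two-sided, unadjusted) gave p = 0.0556. The second Cdh5 probe set was just below the filter (mean log2 level 7.15, with the filter at 7.17) and averaged 105 ± 22.2 in Lim1 mutants and 99.1 ± 33.4 in wild type.

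Esam, an adhesion molecule of endothelial tight junctions, read 393, 1043, 1165 and 477 in Lim1 mutants, against 269, 816, 3073, 1969 and 308 in wild type. Wild-type arrays 3 and 4 were above every mutant and wild-type arrays 1 and 5 below every mutant, so the groups overlapped fully (difference -0.41 ± 0.71, adjusted p = 0.949). Without wild-type array 3 the difference was 0.03.

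Emcn, which encodes endomucin of capillary and venous endothelium, read 326, 73.6, 198 and 97.0 in Lim1 mutants and 72.5, 564, 881, 1430 and 38.1 in wild type. Wild-type arrays 2, 3 and 4 were above all mutants, and wild-type arrays 1 and 5 were below the lowest of them. Its difference was -1.0 ± 0.83 (adjusted p = 0.871), at -1.52 without wild-type array 5 and -0.53 without wild-type array 4.

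Egfl7, a secreted factor of the vessel wall, had 4 tested probe sets that ordered the arrays alike (r of 0.93 to 0.98 between them). The representing probe set read 1705, 2780, 2055 and 1999 in Lim1 mutants, against 2376, 2102, 6742, 5003 and 1697 in wild type. Wild-type arrays 3 and 4 stood above the other 7 arrays, which lay between 1697 and 2780. Differences at the 4 probe sets ran between -0.80 and -0.57, with adjusted p of 0.843 to 0.895. Without wild-type array 3 they ran between -0.38 and -0.30, without wild-type array 4 between -0.46 and -0.33, and without wild-type array 5 between -1.28 and -0.77.

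Ramp2, the adrenomedullin co-receptor, read 4299, 5800, 3412 and 3286 in Lim1 mutants and 4652, 3643, 10389, 4791 and 1899 in wild type. Wild-type array 3 was the highest and wild-type array 5 the lowest, with the mutants between them. The difference was -0.10 ± 0.43, and its interval of -1.03 to 0.84 was narrower than those of the VEGF receptors Kdr, Flt1 and Flt4 at their representing probe sets (adjusted p = 0.983). It turned to 0.21 without wild-type array 3 and to 0.01 without mutant array 4.

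Erg, the ETS transcription factor, had the widest range of signals between arrays. Its tested probe set read 14.3, 229, 186 and 19.9 in Lim1 mutants, against 162, 407, 2129, 429 and 4.67 in wild type. Mutant arrays 1 and 4 and wild-type array 5 were close to the bottom of the scale, and wild-type array 3 was far above the rest. The difference was -1.42 ± 0.95 with an interval of -3.51 to 0.67 (adjusted p = 0.831), at -2.12 without wild-type array 5 and -0.75 without wild-type array 3. The other Erg probe set was dim on all 9 arrays, at 10.7 to 22.5 in Lim1 mutants and 14.8 to 36.9 in wild type.

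Counted together, 0 of the 15 tested probe sets passed an adjusted p of 0.05 in limma, where 9 of 27022 probe sets on the array did (0.0333%), 5 as lower in the mutants (0.0185%) and 4 as higher (0.0148%). At an unadjusted p under 0.05 the count was also 0 of 15, against 6.67% of all tested probe sets. None of the 15 reached an unadjusted p under 0.05 in the exact permutation test either, whose smallest possible p, 0.00794, is too large to pass adjustment here. In 0 of the 15 did the groups stay apart without overlap, against 2.25% of all tested probe sets. Each of the 15 differences was below 0, as were those of 12785 of all 27022 tested probe sets, but the probe sets share arrays. At 1 probe set per gene, all 10 genes were below 0, against 43.5% of all tested genes. Without wild-type array 3, 8 of the 10 genes were below 0 with a median of -0.55, and without wild-type arrays 1 and 3 together, 7 were, with a median of -0.44. The 95% intervals of all 15 probe sets reached below -1, so a halving of the signal could not be told from no change.

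**Figure D2:**
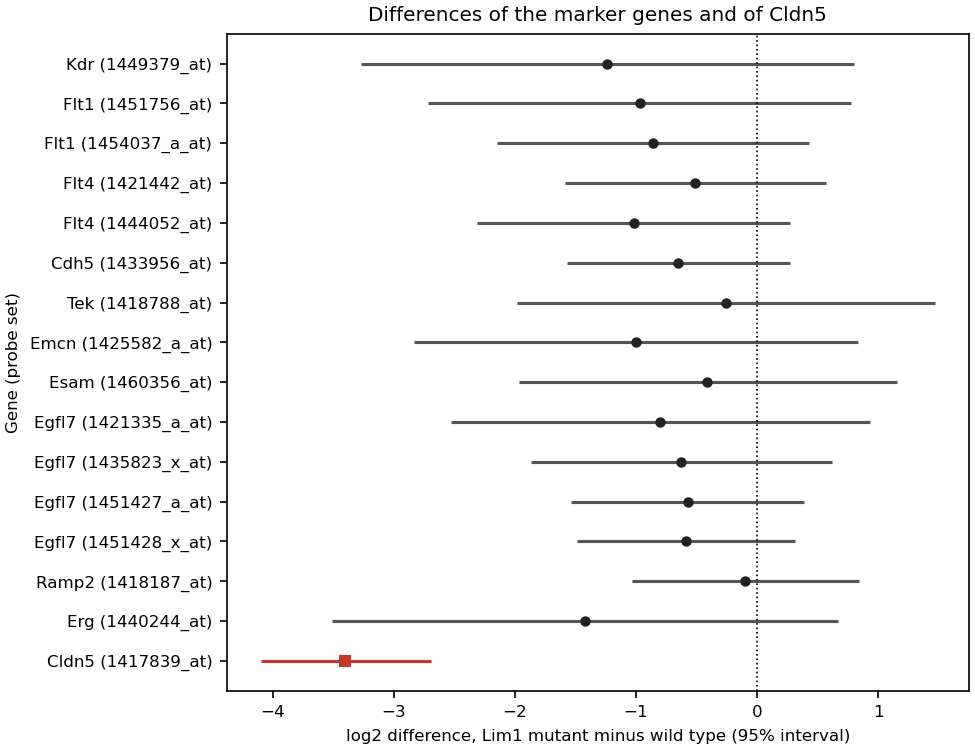
Log2 difference, Lim1 mutant minus wild type, with its 95% interval from limma, for the 15 tested probe sets of the endothelial genes (black) and for Cldn5 (red). All 15 black intervals cross 0, and the Cldn5 interval, -4.10 to -2.69, does not.

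The genes peaked on few arrays. Wild-type array 3 gave the highest normalised level for 6 of the 10 genes (17.8% of all 13226 tested genes), wild-type array 4 for 3 (9.24% of all genes) and wild-type array 5 for Tek alone (9.41% of all genes). No mutant array was the highest for any of the 10, where mutant arrays 1 to 4 were the highest for 5.55%, 16.0%, 11.1% and 8.75% of all tested genes. Wild-type array 5 was at the same time the lowest array for 4 of the 10 genes, against 7.72% of all genes. The spread between wild-type arrays exceeded that between mutants for 9 of the 10 genes (64.3% of all genes), with a median SD of 0.82 in Lim1 mutants and 1.21 in wild type on the log2 scale. Flt4 was the exception, at 0.99 in Lim1 mutants and 0.78 in wild type.

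**Figure D3:**
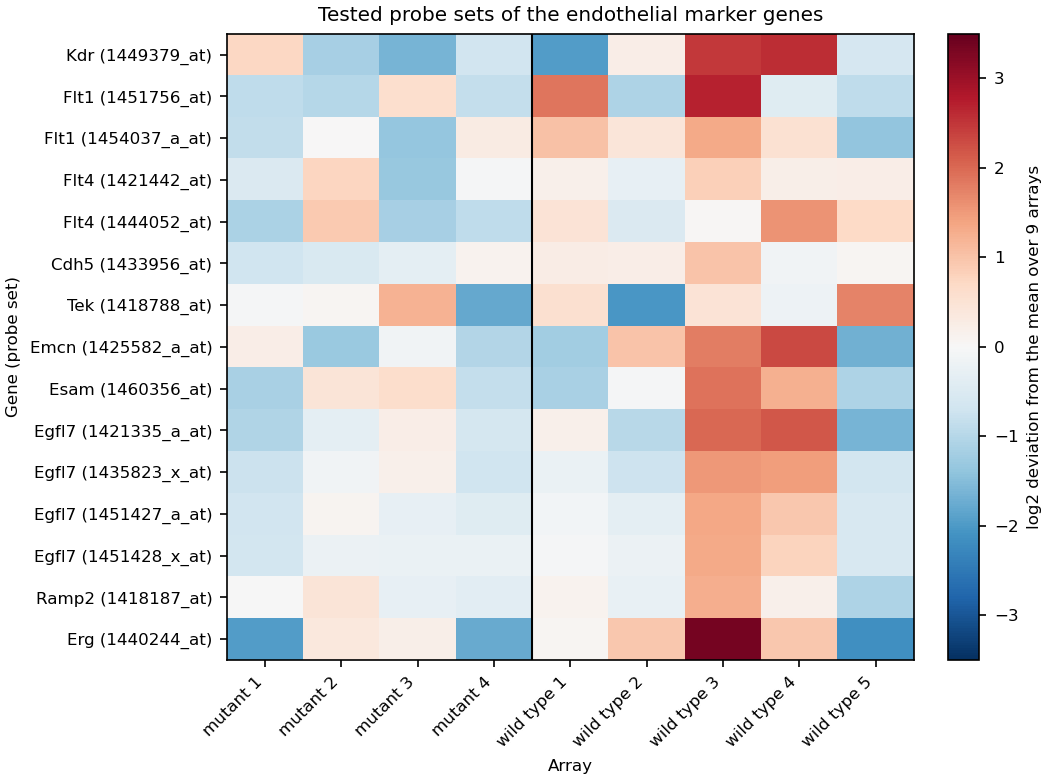
Log2 deviation of each of the 15 tested probe sets from its own mean over the 9 arrays, with the 4 Lim1 mutant arrays left of the line and the 5 wild-type arrays right of it. The columns of wild-type arrays 3 and 4 are mostly red, and the row of Tek has a different order of colours from the rows of Kdr, Emcn and Egfl7.

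The genes moved together only in part. Over the 45 pairs of the 10 genes, Pearson's r across the 9 arrays had a median of 0.42 (Spearman's rho 0.30), ranging between -0.43 and 0.87, where the median over all pairs of tested genes was 0.01. An r of at least 0.8 was reached by 11.1% of the 45 pairs and by 0.862% of all gene pairs. Arrays, normalisation and captured tissue are shared by all genes of an array, so these correlations are a description of 9 arrays.

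After adjustment over the 45 pairs, 4 passed with Pearson's r in the exact permutation test (two-sided) and 0 with Spearman's rho. Esam and Egfl7 had r = 0.87 (exact permutation p = 0.00179, adjusted p = 0.0313), with rho = 0.72 (adjusted p = 0.195), and r = 0.56 without the 2 arrays farthest from the median of Esam. Esam and Erg had r = 0.86 (exact permutation p = 0.00209, adjusted p = 0.0313) and rho = 0.82 (adjusted p = 0.195), and r = 0.70 without the same 2 arrays. Egfl7 and Erg had r = 0.85 (exact permutation p = 0.000857, adjusted p = 0.0313) and rho = 0.87 (adjusted p = 0.195), and r = 0.73 without the 2 arrays farthest for Egfl7. Kdr and Emcn had r = 0.86 (exact permutation p = 0.00330, adjusted p = 0.0371) and rho = 0.73 (adjusted p = 0.195), and r = 0.57 without the 2 arrays farthest for Kdr. In each case the arrays left out were wild-type arrays 3 and 4. None of the 45 pairs passed when mutant array 1, 2 or 4 or wild-type array 3, 4 or 5 was left out singly.

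Other pairs had an r below 0 without those 2 arrays. Kdr and Egfl7 had r = 0.69 with all arrays (rho = 0.15, exact permutation p = 0.0382, adjusted p = 0.163) and -0.70 without wild-type arrays 3 and 4. Kdr and Erg had r = 0.48 with all arrays (rho = 0.40, exact permutation p = 0.195, adjusted p = 0.406) and -0.37 without them. Over all 45 pairs the median r was 0.12 once the 2 arrays farthest for the first gene of each pair were left out. Leaving out a gene's farthest arrays narrows its range, which can lower r by itself, so the fall alone does not show what a pair rests on. With deviations from the group means in place of the levels, which removes the difference between mutants and wild type, the median was 0.37 and 3 pairs passed. Without wild-type array 3 it was 0.26 and 0 pairs passed after adjustment (5 at an unadjusted exact permutation p under 0.05).

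Tek stood apart from the other 9 genes. Its r with them had a median of -0.06 and a highest value of 0.26, and 6 of the 9 were below 0. Against the mean profile of the other 9 genes, Tek had r = -0.09, Flt4 0.36 and Cdh5 0.50, whereas Egfl7 had 0.97, Erg 0.86 and Esam 0.80. The VEGF receptors did not form a unit of their own: Kdr had r = 0.38 with Flt1 (-0.19 without wild-type arrays 3 and 4) and 0.26 with Flt4, and Flt1 had 0.32 with Flt4 (exact permutation p of 0.313 to 0.486, adjusted p of 0.542 to 0.640).

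**Figure D4:**
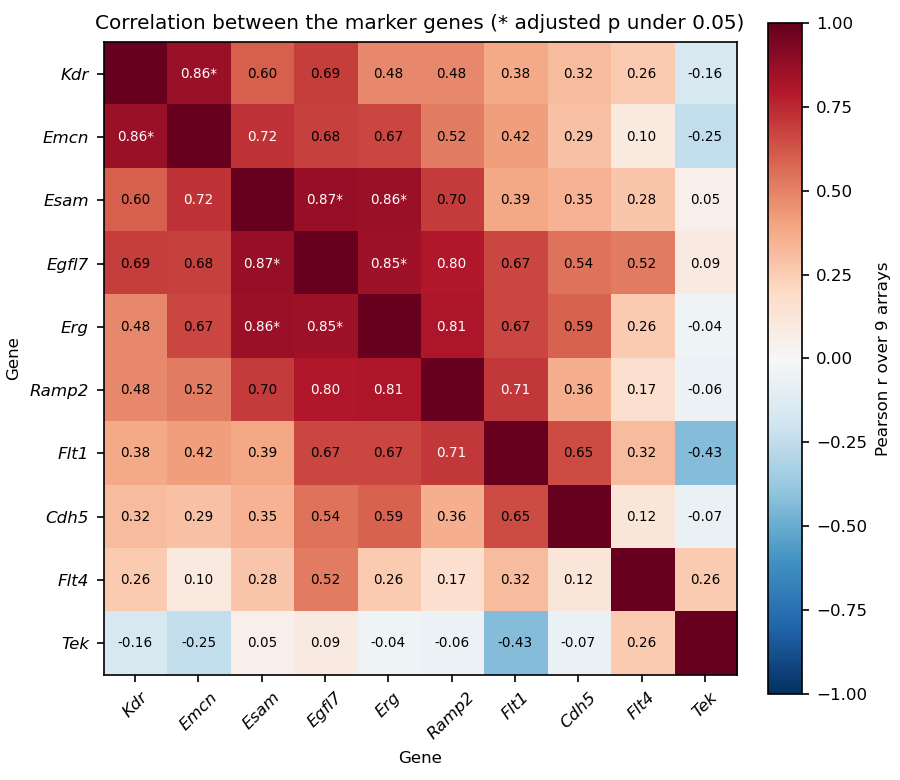
Pearson's r over the 9 arrays for each pair of the 10 endothelial genes, on normalised log2 levels. An asterisk marks the 4 pairs with an adjusted exact permutation p under 0.05, which lie among Kdr, Emcn, Esam, Egfl7 and Erg, and the row of Tek runs between -0.43 and 0.26.

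Genes outside the 10 were ranked by their likeness to the mean of the 10 standardised profiles. The 10 highest of 13216 genes were Tmem88 (r = 0.955 over 9 arrays), 1110059E24Rik, Myzap, Ddx23, Thsd1, Pdrg1, Ror2, Sost, Lrrfip1 and Ctla2a (r = 0.902). With wild-type array 3 left out these 10 had r of 0.747 to 0.917. Closest to Kdr alone were 4930402H24Rik (r = 0.963), Myo9a, Ttc14, Slc35b3 and Fam120c (r = 0.932). None of these 15 was on a wider list of endothelial and VEGF pathway genes, whose nearest entry was Plvap, a protein of endothelial diaphragms, at r = 0.90 (rank 14). The list was chosen by name and is not complete, so a gene missing from it may still be endothelial.

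That wider list held 59 further genes, of which 50 were tested. The difference was below 0 for 35 and above 0 for 15, with a median of -0.29, against 0.07 over all tested genes. A single gene passed as lower in the mutants and 0 as higher, where 0.0302% of all tested genes passed as lower. The median was 0.00 without wild-type array 3, -0.14 without wild-type arrays 1 and 3 together, and between -0.50 and -0.17 with each other array left out. Wild-type array 3 was the highest array for 28 of the 50 genes (56.0%, against 17.8% of all genes).

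The gene that passed was Cldn5, a tight-junction claudin that was on the list as an endothelial gene. Its signals were 734, 1058, 1329 and 609 in Lim1 mutants, against 9592, 10521, 9245, 7988 and 10631 in wild type, with no overlap. The difference was -3.40 ± 0.32 (adjusted p = 0.00450), with an SD of 0.15 between the wild-type arrays on the log2 scale, where the 10 genes had 0.43 (Cdh5) to 1.97 (Erg). The call held with each array left out singly. Without wild-type arrays 1 and 3 together the difference was -3.37 (adjusted p = 0.0650), and with the replicate number as a block it was also -3.37 (adjusted p = 0.184). Its r with the mean of the 10 genes was 0.53 (rank 1118 of 13216). Which cells of the captured tissue gave the Cldn5 signal was not tested. Besides Cldn5, Nrp2, a co-receptor of VEGF-C, had mutant levels below every wild-type level after normalisation, as had 0.968% of all tested genes, at signals of 812, 451, 679 and 438 in Lim1 mutants and 1155, 812, 2044, 1611 and 1246 in wild type (difference -1.17 ± 0.42, adjusted p = 0.696). Its other tested probe set went the other way, at 226 ± 59.0 in Lim1 mutants (SD, n = 4) and 152 ± 63.5 in wild type (SD, n = 5), a difference of 0.40 ± 0.40 (adjusted p = 0.895).

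On the ligand side, 5 of 9 genes were below 0 and 4 above, with a median of -0.13. Vegfa, the ligand of Kdr and Flt1, averaged 1992 ± 579 in Lim1 mutants (SD, n = 4) and 2282 ± 863 in wild type (SD, n = 5), with a difference of -0.15 ± 0.40 (adjusted p = 0.968), and 0.44 ± 0.54 (adjusted p = 0.921) at its other probe set. Vegfc, the ligand of Flt4, was the ligand with an unadjusted p under 0.05 in limma, at 8254, 11498, 11551 and 13193 in Lim1 mutants and 9738, 2473, 8152, 6975 and 5618 in wild type. Its difference was 0.88 ± 0.38 (adjusted p = 0.737), with 1.06 ± 0.46 (adjusted p = 0.737) and 1.02 ± 0.34 (adjusted p = 0.682) at a further pair of probe sets, so none passed. Of 14 tested receptors and co-receptors, 8 were below 0 and 6 above. Nrp1, the co-receptor of Kdr, had a difference of -0.83 ± 0.51 (adjusted p = 0.811), Eng, a co-receptor for TGF-beta family ligands, -0.52 ± 0.42 (adjusted p = 0.868) and Calcrl, the partner of Ramp2, -0.35 ± 0.79 (adjusted p = 0.958). Nrp1 and Calcrl were both highest on wild-type array 3 at these probe sets, at 19581 and 1165. Further tested probe sets of Nrp1 had differences of -0.10 ± 0.35, -0.33 ± 0.94 and -1.68 ± 1.22 (adjusted p of 0.849 to 0.978). The one at -0.33 was highest on mutant array 1, at 8390. Another probe set of Eng had a difference of -1.11 ± 0.87 (adjusted p = 0.861).

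Of 15 junction and surface genes, 13 were below 0, with a median of -0.55, and of 12 transcription factors, 9 were, with a median of -0.53. Cd34, a sialomucin of endothelial and progenitor cells, read 8025 on wild-type array 3 but 11.5 on array 1 of the same group, and its difference of -0.13 ± 1.12 (adjusted p = 0.991) turned to 0.68 without wild-type array 3, 0.13 without wild-type array 4 and 0.01 without mutant array 4. Fli1, the ETS factor closest to Erg, had a difference of -1.25 ± 0.63 (adjusted p = 0.786). The defining endothelial genes Pecam1 and Tie1 were below the filter: Pecam1 read 7.68 to 30.3 in Lim1 mutants and 16.8 to 171 in wild type, and Tie1 5.91 to 85.3 in Lim1 mutants and 3.83 to 349 in wild type. Pecam1 peaked on wild-type array 3, whereas wild-type array 4 had the highest Tie1.

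Markers of other cells were read on the same arrays as summed signals. The 10 endothelial genes summed to 7252 to 11878 on Lim1 mutant arrays and to 9421, 9409, 29103, 20193 and 7177 on wild-type arrays 1 to 5. The 12 stroma genes summed to 17883 to 52912 in Lim1 mutants and to 20380 to 185375 in wild type, and the 13 macrophage genes to 4124 to 7148 in Lim1 mutants and to 1692 to 27295 in wild type, with the highest value on wild-type array 3 in both. On wild-type array 4, second for the endothelial sum, the stroma sum was 22856 and the macrophage sum 2759, within and below the range of the mutants. Mural genes, of the cells around vessels, summed to 10591 to 20426 in Lim1 mutants and to 9353 to 27617 in wild type, again highest on wild-type array 3, with 15047 on wild-type array 4. As with the endothelial sum, wild-type array 3 was highest and wild-type array 4 second for 7 neural genes (1120 to 1776 in Lim1 mutants, against 5266 and 2407 on these arrays) and 8 erythroid genes (19974 to 34806 in Lim1 mutants, against 45182 and 40974). Single genes weighed heavily in both sums: on wild-type array 4, Tfrc read 36180 and Elavl3 1340. The median log2 deviation over the tested erythroid genes was 0.19 and 0.24 on these arrays, below the 0.44 on wild-type array 5. For the neural genes it was 0.87, the highest, on wild-type array 3 but -0.19 on wild-type array 4.

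In the test between groups, 6 of 6 neural genes (median -0.64), 6 of 8 erythroid genes (median -0.47), 8 of 12 stroma genes (median -0.54) and 8 of 10 ureteric bud genes (median -0.52) were below 0, as were 3 of 12 macrophage genes, 2 of 6 mural genes, 3 of 7 cap mesenchyme genes and 5 of 9 renal vesicle genes. None of them passed. The 13 ureteric bud genes summed to 6094 to 14956 in Lim1 mutants and to 9183 to 66066 in wild type, highest on wild-type array 2. The 9 renal vesicle genes summed to 131481 to 147796 in Lim1 mutants and to 105114 to 254678 in wild type, with wild-type array 4 the highest and wild-type array 3 the lowest. The lymphatic markers Prox1 and Lyve1 were below the filter, and Pdpn, which podocytes also make, had a difference of 1.31 (adjusted p = 0.647). The part of these cell types in the endothelial signals was not tested.

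**Figure D5:**
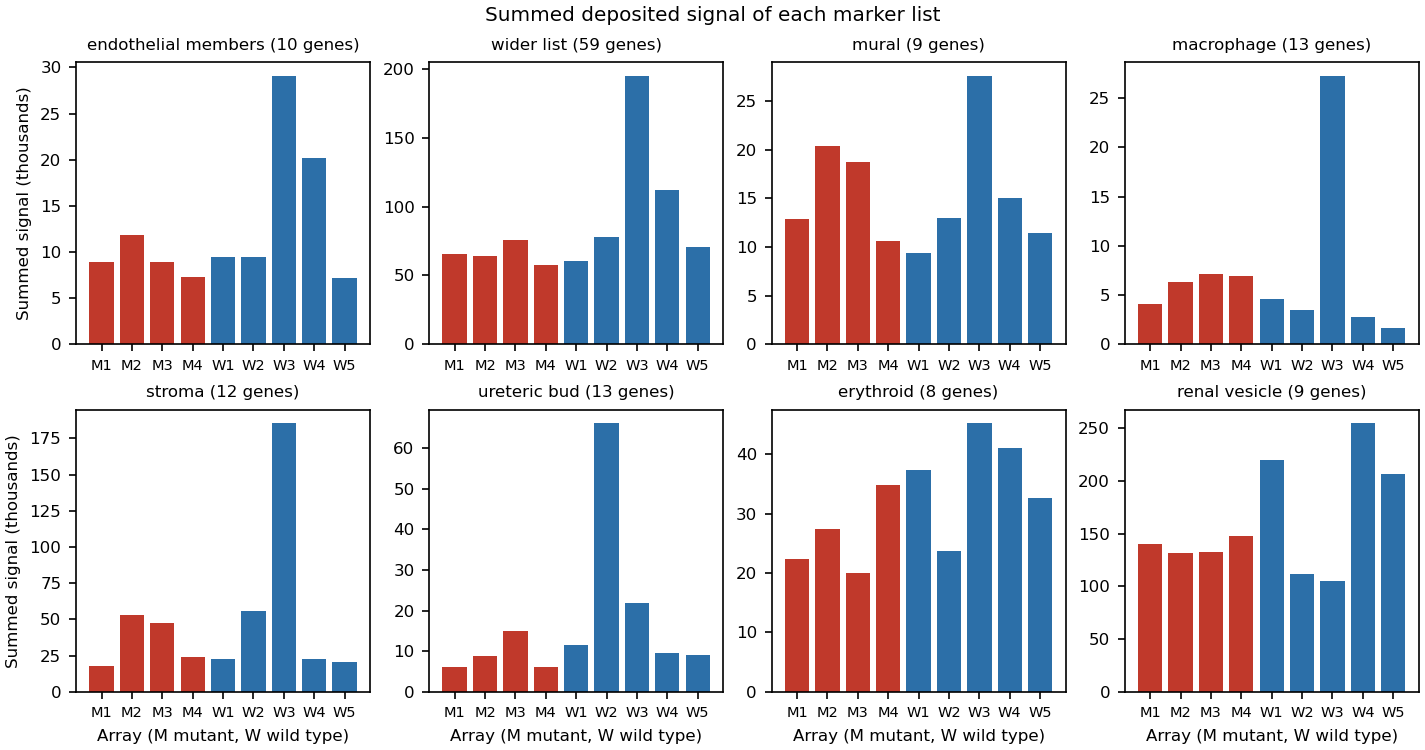
Summed deposited signal (vertical axis, scaled as printed on it) of the endothelial genes, the wider list and 6 lists of markers for other cells, on Lim1 mutant arrays (red, M1 to M4) and wild-type arrays (blue, W1 to W5). Wild-type array 3 is highest for the endothelial, wider, mural, macrophage, stroma and erythroid sums, and wild-type array 4 is second for the endothelial sum (20193) and the erythroid sum (40974) but not for the stroma or macrophage sum.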

How the data were processed

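Renal vesicles were isolated by laser capture. Per the labels' protocols, target came from a 2-round amplification kit and carried biotin, and an RNA kit is named for mutant array 4 alone. The deposited values are 1 intensity per probe set and array, with GCOS, Affymetrix software, named in the submitters' processing notes and the algorithm and version not given in the sources used here. The mean after trimming 2% at each end was 1500 on all 9 arrays, so arrays had been scaled before deposit. No counts exist, and the number of arrays limits the precision.

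Intensities were taken as log2(value + 42.41), the addend being their 25th percentile, and quantile normalised, since array medians spanned 0.349 on this scale. Of 45037 probe sets without controls (64 controls were left out), 27022 with a mean at or above the 40th percentile were fitted with limma 3.58.1 in R 4.3.3 (group as the only term, variance trend, two-sided), with Benjamini-Hochberg adjustment over all of them. Adjusted p-values of differences are limma's. A difference on this scale understates the change of dim probe sets. Of 45101 probe sets, 34958 had 1 symbol, 932 several and 9211 none. The probe set with the highest mean represents a gene. Pairs of genes were tested by exact permutation. The fit was tested on simulated data.

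Named were all 10 genes, fixed entries of a wider list, any listed gene that passed, and those most like the 10 in pattern. Nrp2, Vegfc, Plvap and Pdpn were added after their values were seen. The genes and lists were chosen with earlier results of these data known. Alternatives covered normalisation, addend, filter, variance model, array weights, arrays left out, gene averages and a replicate block.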

Additional observations from a re-analysis of the deposited data

Results flagged for a closer look

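Dixon's test was run on 38 sets of values (19 probe sets in 2 groups) and picked 3 single arrays that lay apart from their group. About 1 in 20 would be picked by chance, or 1.90 here. Mutant array 3 read 177 at the second tested Flt1 probe set, against 36.7 to 50.2 on the other mutant arrays. Mutant array 2 read 774 at the representing Flt4 probe set, against 149 to 217 on the other mutant arrays, and it is the array that kept the groups from separating there. At the other Flt4 probe set, mutant array 4 (287) was also above wild-type arrays 1, 2 and 5 (251, 233 and 279). Mutant array 1 read 1655 at an Egfl7 probe set, against 2019 to 2168 on the other mutant arrays, and it was the lowest mutant array at the other 3 Egfl7 probe sets too.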

How the results depend on the processing

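Under 20 alternatives, 0 of the tested endothelial probe sets passed, and 0 to 2 reached an unadjusted p under 0.05. The exact permutation test among them made 0 calls at any probe set, as its smallest p cannot pass adjustment. Over all probe sets, calls ranged between 0 and 12, against 9 as reported. Of 388 refitted differences, 373 kept their direction and side of the threshold. Directions turned for 4 small differences. Ramp2 was 0.13 with array weights and 0.34 without wild-type arrays 1 and 3, and -0.38 to 0.21 with each array left out. Tek was 0.02 without wild-type arrays 1 and 3, and -0.79 to 0.29 with each array left out. Esam ran between -0.73 and 0.03 with each array left out. Cd34 was 0.09 with the addend at the 10th percentile, and -1.13 to 0.68 with each array left out. The wider list kept its 1 call, Cldn5, with each array left out, but had 0 calls without wild-type arrays 1 and 3 (Cldn5 -3.37, adjusted p = 0.0650). The number of gene pairs passing was 0 with the addend at the 10th percentile and without wild-type arrays 1 and 3, and 0 to 4 with each array left out. The median r was 0.26 to 0.54 with each array left out. The cause of these changes was not tested.

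For mutant and wild-type arrays with the same number, correlations of their deviations were -0.105 to 0.0537, against -0.116 to 0.134 for those with different numbers. The labels give no litter behind a number, so whether such arrays were paired is not known. With the replicate block, which sets wild-type array 5 aside, 0 endothelial probe sets and 0 genes of the wider list passed (Cldn5 -3.37, adjusted p = 0.184), 0 of all tested probe sets passed, and Tek was at 0.15.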

Other observations

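A few values of single arrays stand out among the endothelial genes; they were chosen after the values were seen. Aplnr is the apelin receptor of sprouting endothelium. Its representing probe set read 1966 to 15321 in Lim1 mutants and 13241 to 69039 on wild-type arrays 2 to 5, but 4.10 on wild-type array 1. Its other tested probe set read 169 to 692 in Lim1 mutants and 785 to 2326 on wild-type arrays 2 to 5, with 150 on wild-type array 1. With all arrays the groups overlapped at both Aplnr probe sets, and neither passed. The differences were -0.22 ± 1.73 (limma adjusted p = 0.989) and -1.32 ± 0.70 (limma adjusted p = 0.792). Vwf, a clotting factor stored in endothelium, read 5.74 to 86.9 in Lim1 mutants, against 2695 on wild-type array 3 and 9.83 to 54.5 on the remaining wild-type arrays. The pair of probe sets listed for both Ramp2 and Vps25 were lowest on wild-type array 3, at 9.40 and 648, where the probe set of Ramp2 alone was highest, at 10389.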
